A study of Homo sapiens with 3 samples.

Results

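Aminoacyl-tRNA synthetases join each amino acid to its transfer RNA, the step at which the genetic code is read into protein building blocks. Human cells keep a cytosolic set for nuclear-encoded proteins and a second set, made from nuclear genes and imported, for the few proteins that the mitochondrial genome encodes. The gene for the mitochondrial enzyme carries the suffix 2 (IARS2 beside IARS), while KARS and GARS each supply both compartments. Several cytosolic enzymes are bound together in the multisynthetase complex, whose scaffold proteins are AIMP1, AIMP2 and EEF1E1. Many cytosolic synthetase genes are known targets of ATF4, the transcription factor of the amino acid response.

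A total of 36 synthetase genes are described, chosen by name from the 43389 gene rows shared by the 3 deposited tables, 39320 of which lie on the main reference sequences and not on alternate ones. By the suffix, 20 genes were counted as cytosolic and 16 as mitochondrial, and each had 1 row. The data are polyA RNA-seq of HepG2, a human line of liver cancer cells, with the wild-type genotype and no treatment given in the labels, in 3 libraries of 1 condition. The labels do not say whether the libraries came from separate cultures, so the spread between them may be technical. Levels are in TPM, a share of all transcripts that is scaled for gene length and sums to a fixed total per library. They are averages over a culture, in which fewer cells of a type and less RNA per cell cannot be told apart.

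The libraries did not carry the defining markers of the labelled cell type. In a list of 18 secreted hepatocyte proteins, 16 genes stayed below 1 TPM throughout and 11 (AHSG, ALB, APOA1, APOA2, APOB, APOC3, APOH, FGA, FGB, FGG and SERPINA1) were listed at 0. AFP had at most 0.0248 TPM. The summed level of the list ran from 33.8 to 35.9 TPM, nearly all of it from VTN and RBP4. Other marker lists were mixed. Of the epithelial genes KRT8 had 2609.6 ± 28.6 and KRT18 2017 ± 102 TPM (SD, n = 3), CDH1 1.02 and EPCAM 0.0300 TPM by mean. Of the mesenchymal genes SPARC was at 0 in every library, while VIM had 694 ± 48.1 and CDH2 27.1 ± 1.58 TPM (SD, n = 3). Blood genes were at 0 (PTPRC and CD3E) or 0.679 TPM (HBB), and the fibroblast genes COL1A1 and COL1A2 had 6.93 and 0.0210 TPM. All values below therefore hold for the libraries labelled HepG2. The number of reads is unknown, and the highest coverage per FPKM, a value that rises with depth, was 13.3, 12.8 and 11.5 in replicates 1, 2 and 3.

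To see which synthetase genes hold a known element, the promoters in RefSeq (GRCh38.p14, 250 bases before to 50 after each start) were searched on both strands for the C/EBP-ATF response element TGATGNAAN, the element that ATF4 binds. Windows were found for 30 of the 36 genes, and none for AARS2, DARS, LARS, VARS, VARS2 and YARS. Of the 30 genes, 8 held the element, against 4.45% of all RefSeq genes with a window and 3.60% of the protein-coding ones. The matches fell in 7 of 16 cytosolic genes and in 1 of 14 mitochondrial genes, a difference that was not tested. The 8 genes lie on 7 chromosomes, and the letters that all matches share were set by the search. Each match is shown in the direction of the element, with the element in capitals and 10 bases on either side.
TARS (chr5:33440956-33440984, minus strand): ctggaccagcTGATGCAATcgaaaggcgc
IARS (chr9:92293693-92293721, plus strand): cgcacggaggTGATGCAACgcgctgaaaa
GARS (chr7:30594834-30594862, minus strand): gctcggagcaTGATGAAATcgccgcgtaa
AARS (chr16:70289676-70289704, plus strand): ctaacttggcTGATGCAACtgcgagaaaa
NARS (chr18:57621804-57621832, minus strand): ctacgctctcTGATGCAACgccggaatcg
MARS (chr12:57488053-57488081, minus strand): aatccctcgcTGATGCAACcggaaccggc
CARS (chr11:3057408-3057436, plus strand): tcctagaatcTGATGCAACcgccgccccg
YARS2 (chr12:32756076-32756104, minus strand): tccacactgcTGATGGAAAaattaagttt

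TARS alone matched the stricter form TGATGCAAT, which 0.293% of all RefSeq genes hold. Of the 8 matches, 6 read TGATGCAAN, the form in 1.08% of all RefSeq genes, and this form was picked out after the matches had been seen. The element lay near a RefSeq start in 6 cytosolic genes. In MARS it spanned the start, and in CARS it spanned 1 of the 2 RefSeq starts. It began 14 bases before the start in IARS and 34 bases before the later RefSeq start in GARS. In TARS it began at base 2 after the later of the RefSeq starts, and in NARS at base 15. The matches in AARS and YARS2 lay farther out, beginning 188 and 197 bases before the start. A match is a description of letters and not of binding, and no binding was measured.

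**Figure D1:**
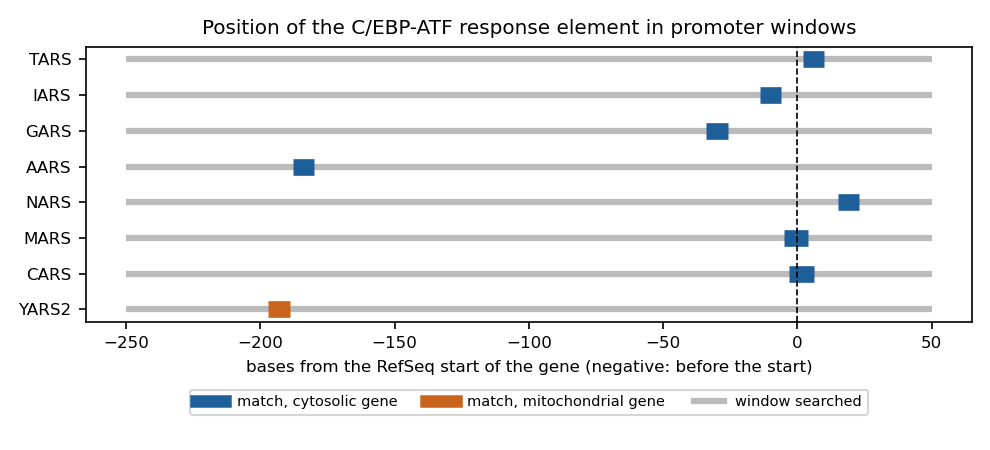
Position of the C/EBP-ATF response element in the promoter windows of the 8 synthetase genes that hold it. The x axis is the distance in bases from the RefSeq start whose window holds the match, grey bars are the windows searched and coloured blocks are matches, blue for cytosolic and orange for mitochondrial genes. Matches in 6 cytosolic genes lie within 34 bases before to 23 bases after that start, and those in AARS and YARS2 lie farther out. In TARS, GARS and CARS it is 1 of 2 RefSeq starts.

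Cytosolic genes that hold the element did not have the higher levels. Their median was 122, 122 and 117 TPM in replicates 1, 2 and 3, and that of the 9 cytosolic genes with a window and no match was 132, 129 and 128 TPM. The holders ranged from CARS, one of the lowest cytosolic genes, to TARS, the highest.

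All 36 synthetase genes reached 1 TPM in every library, and 33 of them reached 10 TPM in every library. Over all rows 20.7% reached 10 TPM in every library, and of the rows that RefSeq names protein-coding 40.3% did. The exceptions were the mitochondrial genes FARS2, MARS2 and PARS2. By mean TPM, the median synthetase gene exceeded 83.4% of the 13753 genes whose mean reached 1 TPM. The summed level of the 36 genes was 0.323%, 0.311% and 0.308% of the total TPM in replicates 1, 2 and 3. TRNC, a mitochondrially encoded tRNA gene, alone took 16.9%, 17.2% and 17.1% of the total in these replicates. As the total is fixed, this lowers the TPM of every other gene.

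**Figure D2:**
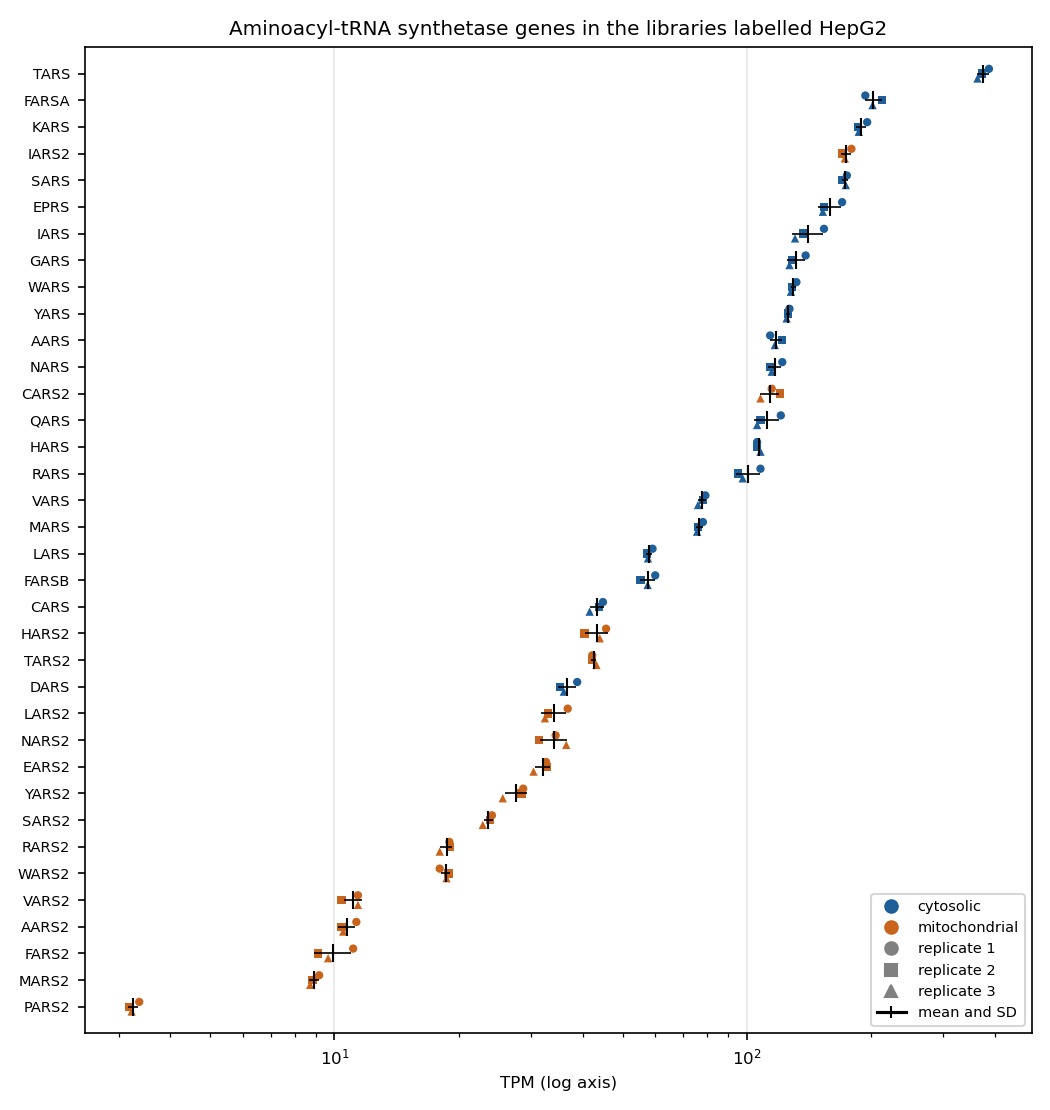
Level of each of the 36 synthetase genes in TPM on a log axis, ordered by mean, with 1 marker per library, blue for cytosolic and orange for mitochondrial genes, and bars for the mean and SD of 3 libraries. TARS stands alone at the top with 374 TPM and PARS2 alone at the bottom with 3.25 TPM, and the mitochondrial genes IARS2 and CARS2 lie among the higher cytosolic ones.

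Among the cytosolic genes, TARS, which charges threonine, had 387, 372 and 363 TPM in replicates 1, 2 and 3, or 374 ± 12.3 TPM (SD, n = 3). No other synthetase gene came near it in any library. FARSA, the catalytic subunit of the phenylalanine enzyme, followed with 194, 213 and 202 TPM, so that TARS was 1.84 times as high by mean. KARS, which charges lysine in both compartments, had 196, 186 and 187 TPM and overlapped FARSA.

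SARS, the serine enzyme, had 175, 170.3 and 174 TPM. EPRS, a single protein that charges both glutamate and proline, had 170.4, 154 and 153 TPM. These values left SARS and EPRS overlapping by a narrow margin, in replicate 1 of EPRS only. IARS (isoleucine) had 154, 137 and 131 TPM, with replicate 1 well above the others and a coefficient of variation of 8.51%, the largest of any cytosolic gene. GARS (glycine), the other gene that serves both compartments, had 132 ± 6.55 TPM (SD, n = 3).

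A broad group of cytosolic genes lay close to 100 TPM or somewhat above. WARS, the interferon-inducible tryptophan enzyme, had 129.7 ± 1.75 TPM and YARS (tyrosine) 126 ± 1.20 TPM (SD, n = 3). AARS (alanine) had 118 ± 3.91, NARS (asparagine) 117 ± 4.10 and QARS (glutamine) 112 ± 7.92 TPM (SD, n = 3). HARS (histidine) had 107 ± 0.768 TPM with the smallest coefficient of variation, 0.719%, and RARS (arginine) had 101 ± 6.93 TPM (SD, n = 3). WARS stood above YARS, and YARS above AARS, in all 3 libraries without overlap, while the values from AARS down to RARS ran into each other.

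The lowest cytosolic genes were set apart from that group. VARS (valine) had 78.0 ± 1.63 and MARS (methionine) 76.8 ± 1.33 TPM (SD, n = 3), and no library of either reached the lowest value of RARS, 95.4 TPM. LARS (leucine) and FARSB, the other subunit of the phenylalanine enzyme, had 58.0 ± 0.935 and 57.6 ± 2.36 TPM (SD, n = 3). CARS (cysteine) had 44.8, 43.9 and 41.6 TPM. DARS (aspartate) was the lowest of the 20, with 38.8, 35.3 and 36.0 TPM, so that cytosolic levels spanned 10.2 times from DARS to TARS.

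The mitochondrial set had a wider span. IARS2 (isoleucine) was its highest gene, with 179.5, 170.2 and 173 TPM, and it overlapped SARS and stood just below KARS in the order of all 36 genes. CARS2 (cysteine) had 115, 120.3 and 108 TPM, within the values of NARS and QARS.

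The other mitochondrial genes lay below every cytosolic gene except CARS and DARS in all 3 libraries. HARS2 (histidine) had 43.3 ± 2.68, TARS2 (threonine) 42.5 ± 0.579, LARS2 (leucine) 34.1 ± 2.36 and NARS2 (asparagine) 34.1 ± 2.57 TPM (SD, n = 3). EARS2 (glutamate) had 32.0 ± 1.33, YARS2 (tyrosine) 27.6 ± 1.70 and SARS2 (serine) 23.6 ± 0.588 TPM (SD, n = 3). RARS2 (arginine) and WARS2 (tryptophan) followed with 18.7 ± 0.627 and 18.6 ± 0.461 TPM (SD, n = 3) and overlapped each other.

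The 5 lowest genes of all were mitochondrial. VARS2 (valine) had 11.1 ± 0.546, AARS2 (alanine) 10.7 ± 0.510 and FARS2 (phenylalanine) 9.94 ± 1.01 TPM (SD, n = 3), and these overlapped in turn. MARS2 (methionine) had 9.18, 8.85 and 8.73 TPM. PARS2 (proline) had 3.36, 3.18 and 3.22 TPM, below every other synthetase gene in every library, and IARS2 was 53.6 times as high by mean. Over the whole order, the libraries overlapped in 22 of the 35 pairs of neighbouring genes and did not in 13. No such count was made for neighbours among all genes, so it describes this order only.

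The main comparison set each cytosolic gene against the mitochondrial gene for the same amino acid, within each library. It covered 16 amino acids in 17 pairs, since EPRS was set against both EARS2 and PARS2, and FARSA and FARSB were each set against FARS2. The cytosolic gene was higher in all 3 libraries in 15 pairs, and the mitochondrial gene was higher in all 3 libraries in the other 2, which were isoleucine and cysteine. In no pair did the libraries of the 2 genes overlap. That is common, since 94.2% of all pairs among the genes whose mean reached 1 TPM did not overlap either. With the signs of the 3 library differences flipped in an exact permutation test (two-sided), p was 0.25 for every pair, and 0.25 after Benjamini-Hochberg adjustment over the 17 pairs. This is the smallest p that 3 libraries allow, so no pair could pass a threshold.

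By TPM, the largest difference was in proline. By coverage both phenylalanine pairs exceeded it, with log2 ratios of 9.52 and 6.90 against 5.53 for proline. EPRS exceeded PARS2 by 5.30, 5.21 and 5.19 on the log2(TPM + 1) scale in replicates 1, 2 and 3, a mean of 5.23 ± 0.06 (SD, n = 3), and by 48.8 ± 1.66 times in TPM. The same EPRS message exceeded EARS2, its partner for glutamate, by only 2.28 ± 0.08 (SD, n = 3) on that scale. Both proline and glutamate charging in the cytosol thus draw on 1 message, while the mitochondrial messages for these amino acids stood at 3.25 and 32.0 TPM.

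Phenylalanine followed. FARSA exceeded FARS2 by a log2 ratio of 4.22 ± 0.20 and FARSB exceeded it by 2.42 ± 0.07 (SD, n = 3). The cytosolic enzyme is built from equal numbers of FARSA and FARSB chains, whereas the mitochondrial enzyme is a single FARS2 chain. The messages of the cytosolic subunits were not equal. FARSA was above FARSB by a log2 ratio of 1.68, 1.93 and 1.80 in replicates 1, 2 and 3, which is 3.54 ± 0.315 times in TPM (SD, n = 3), with p = 0.25 in the exact sign-flip permutation test. By coverage the log2 ratio was larger, 2.61.

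In 9 further pairs the cytosolic gene led by log2 ratios from 1.75 to 3.34. Alanine had the highest of these, with AARS over AARS2 at 3.34 ± 0.11 (SD, n = 3). Threonine (3.11 ± 0.06), methionine (2.97 ± 0.01), serine (2.82 ± 0.04), tryptophan (2.74 ± 0.05) and valine (2.71 ± 0.08) followed within a narrow band (SD, n = 3). Methionine was the steadiest pair, at 2.96, 2.97 and 2.98 in replicates 1, 2 and 3. Arginine, tyrosine and asparagine had 2.36 ± 0.10, 2.16 ± 0.07 and 1.75 ± 0.11 (SD, n = 3).

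By TPM, histidine and leucine had the smallest cytosolic lead, whereas by coverage serine had it, with a log2 ratio of 1.64. HARS over HARS2 was 1.28 ± 0.09 and LARS over LARS2 was 0.75 ± 0.07 (SD, n = 3), or 1.71 ± 0.0891 times in TPM for leucine. By coverage these log2 ratios were 1.89 and 2.06. HARS and HARS2 are neighbours on chromosome 5 that are transcribed away from each other. In the deposited rows HARS (minus strand) runs from 140673904 to 140691727 and HARS2 (plus strand) from 140691426 to 140699318, so that 302 bp are shared at their starts. The strand setting of the counting is not given in the sources used here, and reads in the shared part cannot be assigned to either gene with certainty.

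In 2 pairs the order was turned. IARS2 exceeded IARS by 1.24 ± 0.0794 times in TPM (SD, n = 3), with log2 ratios of IARS to IARS2 of -0.22, -0.31 and -0.40 in replicates 1, 2 and 3. CARS2 exceeded CARS by 2.63 ± 0.0952 times (SD, n = 3), with log2 ratios of CARS to CARS2 of -1.34, -1.43 and -1.36. For isoleucine both genes were high, whereas for cysteine the cytosolic gene was among the lowest of its set. IARS2 lies on chromosome 1 beyond EPRS, 47626 bp from its 5′ end.

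**Figure D3:**
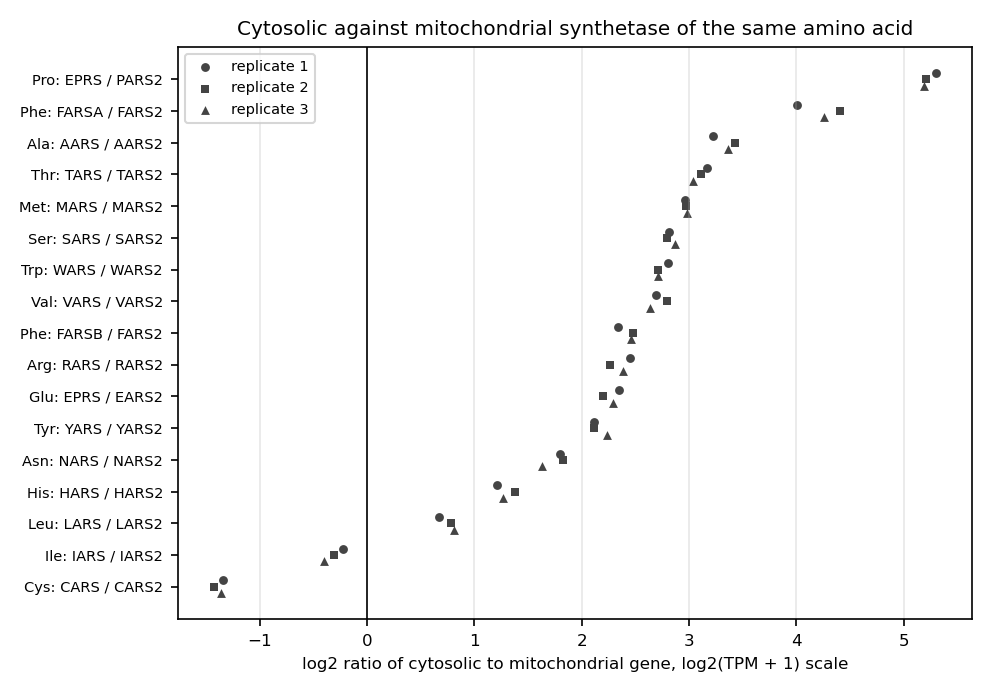
Log2 ratio of the cytosolic to the mitochondrial synthetase gene of the same amino acid, on the log2(TPM + 1) scale, for 17 pairs, with 1 marker per library. Markers right of the line at 0 are pairs with the cytosolic gene higher, from LARS over LARS2 at 0.75 to EPRS over PARS2 at 5.23, and the isoleucine and cysteine pairs lie left of it in all 3 libraries.

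By group, the median of the 20 cytosolic genes was 121, 118 and 116 TPM in replicates 1, 2 and 3, and that of the 16 mitochondrial genes was 26.4, 26.1 and 24.3 TPM. The ratio of the medians was 4.59, 4.52 and 4.78, a mean of 4.63 ± 0.134 (SD, n = 3). The ratio of the summed levels was steadier, at 4.17 ± 0.0201 (SD, n = 3). The levels of partner genes were barely related. Across the 17 pairs, some of which share EPRS or FARS2, Pearson's r of log2 mean TPM was -0.06 and Spearman's rho was -0.03, given as a description only.

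How far a TPM value reflects reads over the whole gene was described by coverage, the mean read depth over a gene, divided by FPKM. The ratio was expressed as a percentage of the highest in the library. It was at least 90% in 18 of the 36 synthetase genes and under 50% in 7. Of the 13690 genes whose mean reached 1 TPM and whose FPKM was above 0 in every library, 40.1% were at 90% or more and 28.4% were under 50%. FARS2 stood at 0.845%, with a coverage of only 0.596, 0.483 and 0.431 in replicates 1, 2 and 3 beside 11.1, 9.12 and 9.65 TPM. MARS2, with a similar TPM, had a mean coverage of 53.3. FARS2 also had the largest coefficient of variation of all 36 genes, 10.1%. YARS2 was at 10.3%, and its deposited row extends 21297 bp beyond the end of the gene in current RefSeq and overlaps the row of DNM1L, a gene on the other strand with 47.2 ± 1.39 TPM (SD, n = 3), over 20404 bp. RARS2 was at 26.5%, CARS2 at 32.3%, LARS2 at 39.4%, SARS at 41.3% and CARS at 46.3%. The part of these ratios in the TPM values was not tested.

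**Figure D4:**
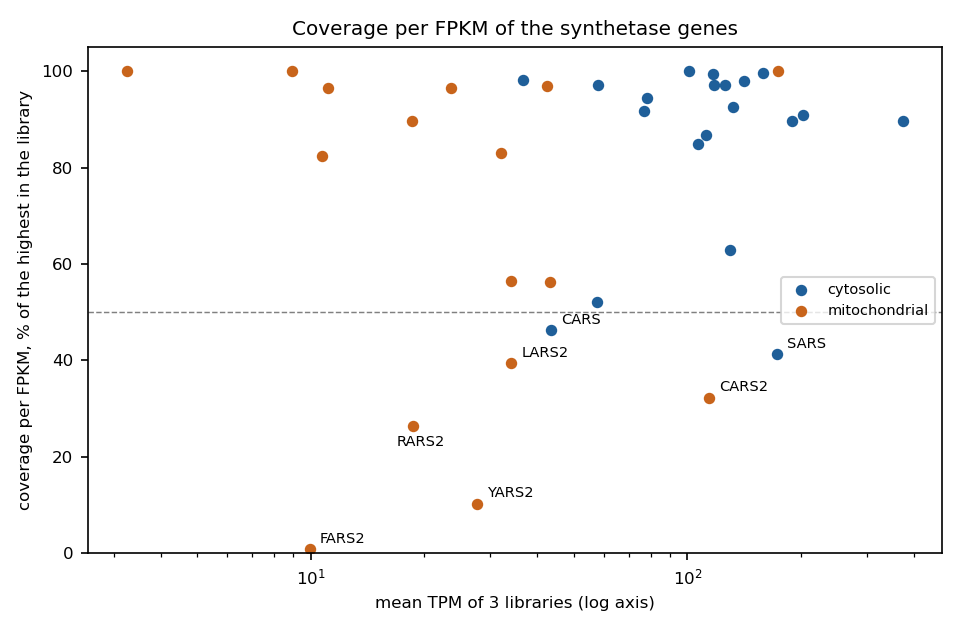
Coverage per FPKM of each synthetase gene, as a percentage of the highest in its library and averaged over 3 libraries, against its mean TPM on a log axis, blue for cytosolic and orange for mitochondrial genes. The 7 genes under the dashed line at 50% are named, of which FARS2 is the lowest at 0.845%.

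By coverage in place of TPM, the same 15 to 2 division of the pairs was seen, with log2 ratios of -0.34 for IARS to IARS2 and -0.87 for CARS to CARS2. The pairs with FARS2 and YARS2 moved most, the latter to 5.35 for YARS to YARS2. RARS to RARS2 moved to 4.29 and NARS to NARS2 to 2.59, so the order of the pairs by size depended on the unit. Without the pairs that hold any of the 7 genes, the cytosolic gene was higher in 9 of 10, all but isoleucine. This subset was chosen after the data had been seen.

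The synthetases of the multisynthetase complex had a slightly lower median than the other cytosolic ones in every library. The median of the 8 complex members (DARS, EPRS, IARS, KARS, LARS, MARS, QARS and RARS) was 115, 102 and 102 TPM, and that of the other 12 was 125, 124 and 121 TPM, a ratio of 0.860 ± 0.0524 (SD, n = 3). Within the complex, KARS was the highest with 189.6 ± 5.56 TPM and DARS the lowest with 36.7 ± 1.83 TPM (SD, n = 3). Of the scaffold genes, AIMP2 had 138, 136 and 131 TPM. AIMP1 had 48.7, 39.4 and 45.9 TPM and EEF1E1 had 46.2, 46.6 and 46.5 TPM, so that AIMP2 stood well above both in every library.

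Valine is charged by an enzyme bound to elongation factor 1, which carries charged tRNA to the ribosome. The 4 listed genes of that factor (EEF1A1, EEF1B2, EEF1D and EEF1G) had far higher levels than VARS. EEF1D, the lowest, had 275 ± 11.3 TPM and EEF1A1, the highest, 2776 ± 96.8 TPM (SD, n = 3).

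No gene ending in 2 was found for glutamine, glycine or lysine. Mitochondrial glutamine tRNA is first charged with glutamate by EARS2 and then converted by an amidotransferase of QRSL1, GATB and GATC. Those genes had 9.01 ± 0.680, 13.7 ± 0.352 and 24.5 ± 1.38 TPM (SD, n = 3), each below EARS2 with no overlap. Of all pairs among the genes whose mean reached 1 TPM, 94.2% did not overlap either. Across the list of 10 other aminoacylation genes, which also holds the threonine paralog TARSL2 (13.4 ± 0.894 TPM) and the tRNA editing gene AARSD1 (35.1 ± 4.82 TPM, SD, n = 3), 7 reached 10 TPM in every library. The share among protein-coding rows, given above, was 40.3%. AARSD1 was the highest of the list and PSTK, a kinase of the selenocysteine pathway, the lowest, with 3.07 ± 0.0883 TPM (SD, n = 3).

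The mitochondrial translation factors gave a level for the machinery that uses the mitochondrial synthetases. The median of the 9 factors was 35.7, 31.9 and 31.0 TPM, beside the 26.4, 26.1 and 24.3 TPM of the mitochondrial synthetases. TUFM, the elongation factor that delivers charged tRNA, was the highest with 374, 375 and 368 TPM, and MTRF1, a release factor, was the lowest with 8.65 ± 0.266 TPM (SD, n = 3). TUFM exceeded every mitochondrial synthetase gene in every library.

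ATF4 itself had 231, 233 and 247 TPM. Of the list of 14 genes made up of ATF4 and its known targets, 12 reached 10 TPM in every library, beside the 40.3% of protein-coding rows given above, and none was listed at 0. SLC7A5, a subunit of a carrier that imports large neutral amino acids, was the highest with 1168 ± 49.0 TPM (SD, n = 3). CHAC1, an enzyme that breaks down glutathione, was the lowest with 2.07 ± 0.238 TPM, and ASNS, the asparagine synthetase of the same response, had 27.0 ± 1.42 TPM (SD, n = 3). Levels within the list thus ran from far below to far above those of the cytosolic synthetases. DDIT3, another gene of the list, ends against MARS on chromosome 12, where their rows share 68 bp.

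Between libraries the largest range of any synthetase gene was 0.25 on the log2(TPM + 1) scale, in FARS2. None spanned more than 1, which is near the background, since only 0.273% of the 8419 genes whose mean reached 10 TPM did. The median coefficient of variation was 3.41% for the cytosolic and 4.46% for the mitochondrial genes, beside 4.88% for those 8419 genes. The 3 groups were not matched for level, so these medians do not show whether synthetase genes are steadier than genes of like level. The means of FARS2, MARS2 and PARS2 were below 10 TPM, outside the limit of the 8419 genes. The highest value was in replicate 1 for 27 of the 36 genes, 17 cytosolic and 10 mitochondrial. Of the same 8419 genes, 62.5% were highest in replicate 1. Replicate 1 also had the highest coverage per FPKM, whose part in these counts was not tested.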

How the data were processed

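RNA from 3 libraries labelled wild-type HepG2 was sequenced as 150 bp paired-end reads. The authors filtered reads with FastQC 0.11.8 and Trim Galore 0.6.2 and mapped them to GRCh38 with STAR 2.6.1a. The submitters' processing notes also name StringTie, without a version. The annotation is not given in the sources used here. The authors deposited TPM, FPKM and coverage (a signal not scaled for library size) per gene and library. The tables hold no counts, so no counting error was given, and the SD of 3 libraries stands for the precision.

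Gene tables were merged on name and position, and TPM was used as deposited. The naming rule finds 37 genes, of which 1 is not reported here and enters no count, median or figure of the synthetase genes. The other 36 were matched to RefSeq by symbol, of which 18 carry the suffix 1 there, and by overlapping position. The 12 further rows of these genes on alternate reference sequences were at 0. Pairs were compared by log2(TPM + 1) within a library and tested two-sided by flipping the signs of the 3 differences (exact permutation), with p-values adjusted by Benjamini-Hochberg. The rule for named genes took all synthetase genes and, of the other lists, the highest, the lowest and those at 0. EEF1E1, QRSL1, GATB, GATC, TARSL2, ATF4, ASNS, DDIT3, AFP, RBP4, CDH1 and the genes that overlap a synthetase row were named for their role or position after their values were seen. KRT18, CDH2 and TRNC were also named after their values were seen. Members and lists were chosen with earlier results of these data known. The alternatives were leaving out each replicate, another pseudocount, FPKM or coverage in place of TPM, other limits on low TPM, other scalings, other forms of the promoter element, and groups without EPRS or without KARS and GARS. A correlation with the amino acid content of the proteome had been planned and was not run, because no protein sequences were used here. The range rule was tested on simulated data and recovered all 200 planted genes among 8435 with 0 false calls. The planted changes were well above the limit of the rule and the simulated noise was small, so this outcome was largely fixed in advance. It checks the code and not the spread between these libraries. Python 3.11.15, numpy 2.4.6, pandas 2.3.3 and matplotlib 3.10.9 were used.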

Additional observations from a re-analysis of the deposited data

How the results depend on the processing

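No paired analysis was possible because 1 condition leaves no groups of samples to pair, and differences between genes were taken within each library. The number of pairs with the cytosolic gene higher in all libraries was 15 with a pseudocount of 0.1, by FPKM, by coverage and without each replicate, and no pair changed direction. By coverage the ratio of the cytosolic to the mitochondrial median rose from 4.63 to 6.57, that of complex members to other cytosolic genes from 0.860 to 0.972, and the median percentile from 83.4 to 83.6. Without a filter on low genes the percentile was 94.2. Without KARS and GARS the ratio of medians was 4.43. Scaling without mitochondrially encoded genes raised all 36 levels by 1.25 to 1.26 times and their median from 67.5 to 84.5 TPM. At a minimum of 50 TPM, 20 genes passed in place of 33. The promoter element was found in 1 gene in its stricter form in place of 8, as fewer sequences meet it. With each replicate left out, the ratio of medians ranged from 4.56 to 4.69. The number of reads is unknown, so counting error could not be set for any gene.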

Other observations

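Synthetases fall into 2 structural classes with unrelated catalytic folds. Among the cytosolic genes, and leaving out EPRS, which holds a domain of each class, the median of the 9 class I genes was 108, 95.4 and 97.8 TPM in replicates 1, 2 and 3, and that of the 10 class II genes was 130.4, 125 and 122 TPM. The genes of the 2 classes overlapped, with means from 43.4 to 141 TPM in class I and from 36.7 to 374 TPM in class II. The difference in medians was not tested. It was not among the planned comparisons and was not repeated under other settings. The highest gene was IARS in class I and TARS in class II, and the lowest were CARS and DARS. SARS2, the mitochondrial serine gene, shares 189 bp at its start with MRPS12, a mitochondrial ribosomal protein gene on the other strand that had 162 ± 2.48 TPM (SD, n = 3) against 23.6 ± 0.588 TPM (SD, n = 3) for SARS2. CARS2 likewise overlaps ING1 over 979 bp, and ING1 had 25.4 ± 1.39 TPM (SD, n = 3).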
